A study of Mus musculus with 24 samples.

Results

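Dehydrolithocholic acid (DehydroLCA) was compared with untreated control in in vitro activated mouse CD8+ T cells. The comparison rests on 6 of the 24 RNA-seq libraries of the series, 3 whose titles name DehydroLCA and 3 whose titles name Control, and it was read across all genes. DehydroLCA was given at 50 µM, and the design text gives an exposure of 24 h where the treatment protocol says overnight. The control libraries are labelled only as control, and 1 protocol covers the activated cells of all groups. Strain, age, activating agent and vehicle are not given in the labels. Lithocholic acid (LCA) and IsoLCA, 3 libraries each at 50 µM, served for a direct comparison with DehydroLCA. Nothing in the labels says whether the 3 libraries of a group came from separate mice or cultures, so the p-values measure the spread between these libraries, which may be technical. The purpose stated for the series was to learn how bile acids change gene expression in T cells.

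Lithocholic acid is a secondary bile acid that gut bacteria make from chenodeoxycholic acid. DehydroLCA carries a ketone at carbon 3, where LCA has an alpha hydroxyl and IsoLCA a beta hydroxyl. Bile acids of this family are ligands of nuclear receptors such as the vitamin D receptor, the farnesoid X receptor and the pregnane X receptor, several of which pair with the retinoid X receptor. Cell sterol content is set by opposing regulators. SREBP2 turns on cholesterol synthesis when sterol is low, and the liver X receptors turn on sterol export and SREBP1 when oxysterols are high. An activated CD8+ T cell builds membrane quickly, runs glycolysis at a high rate and makes cytokines and granzymes.

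The gene counts summed to 32308354.5, 32706655.5 and 37269527.5 per control library and to 33473400, 32435983.5 and 34733392.5 per DehydroLCA library. Levels are given as CPM, a gene's count scaled to a common library total after trimmed-mean normalization, and differences as log2 fold changes ± SE. A gene was called at a Benjamini-Hochberg adjusted p under 0.05 in edgeR's quasi-likelihood test. The cells carried the T cell genes of their label. Cd8a, the CD8 alpha chain, stood at 636, 616 and 626 CPM in control and at 639, 628 and 629 CPM with DehydroLCA, and Cd3e was at 317 to 335 and 314 to 325 CPM. None of the 15 tested T cell identity genes passed in either direction (median log2 fold change 0.02). Markers of myeloid and B cells were scarce. Only 4 of 18 myeloid markers and 2 of 10 B cell markers passed the filter on low counts, with summed levels of 3.01 to 3.59 CPM in control and 2.79 to 3.84 CPM with DehydroLCA for the former, and 5.61 to 5.91 and 5.10 to 5.43 CPM for the latter. Lyz1, C1qa, C1qb, S100a8, S100a9, Clec9a, Siglech, Hbb-bs and Alb had 0 counts in all 6 libraries, which allows up to 0.0929 CPM by the rule of 3 counts per library. Summed levels in control and with DehydroLCA were 75.5 to 86.8 and 70.8 to 76.6 CPM for the 6 tested dendritic cell markers and 123 to 149 and 125 to 137 CPM for the 6 tested CD4 T cell markers. They were 168 to 172 and 161 to 168 CPM for the 6 tested natural killer and gamma-delta markers and 48.9 to 54.9 and 41.0 to 45.5 CPM for the 4 tested stromal and erythroid markers. Among these marker lists Itgam, H2-Ab1 and Pecam1 fell and Zbtb7b rose, as described with their groups, and their part in other results was not tested. In bulk RNA, fewer cells of a type and less RNA per cell cannot be told apart.

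DehydroLCA changed a moderate number of genes by small amounts. Of 13044 tested genes, 760 (5.83%) were called, 315 higher (2.41%) and 445 lower (3.41%) than in control. Counts of list members against control are to be read beside these shares. Scaling by total counts gave 433 higher and 415 lower. The 3 and 3 libraries did not overlap for 26.5% of all tested genes, called or not. Of the called genes, 37 rose and 71 fell by more than 1.5-fold, and 12 rose and 27 fell by more than 2-fold. Most of those beyond 2-fold were scarce. Only 2 of the 12 that rose and 1 of the 27 that fell reached a mean of 10 CPM in either group. The median log2 fold change over all tested genes was 0.009. Leaving out control replicate 2 lowered the count of called genes to 400, leaving out DehydroLCA replicate 1 to 426 and leaving out DehydroLCA replicate 3 to 460.

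**Figure D1:**
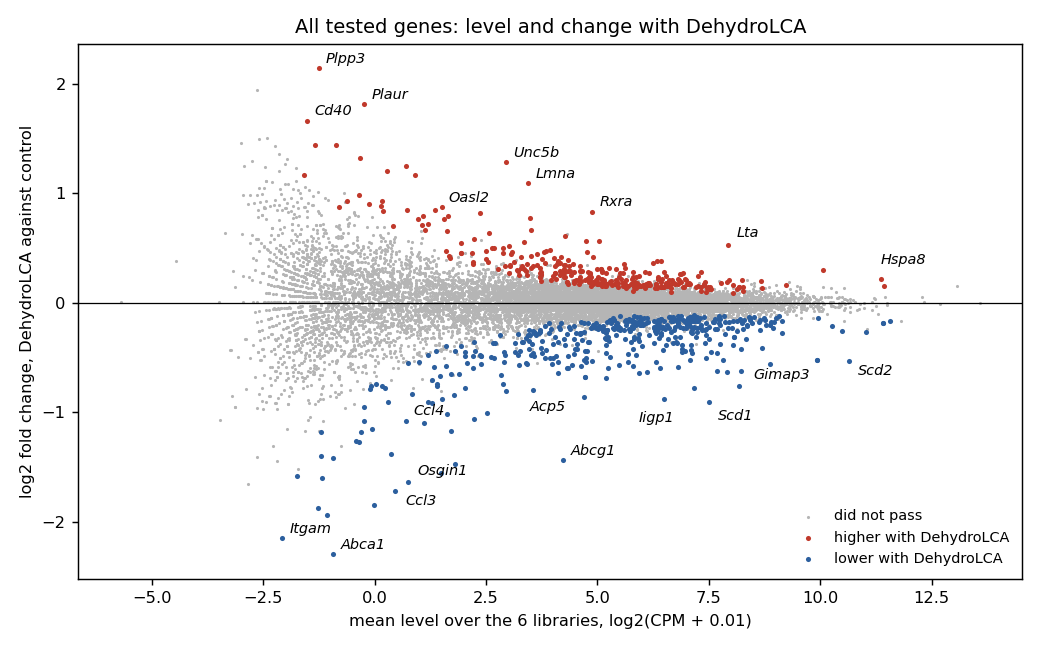
Each point is 1 of the 13044 tested genes, placed by its mean level over the 6 libraries (log2 of CPM plus 0.01) and by its log2 fold change, DehydroLCA against control. The 315 genes called higher are red and the 445 called lower are blue. Among ranked genes with a mean of 10 CPM or more in either group, Unc5b, Lmna and Rxra rose most. Abcg1, Scd1 and Iigp1 fell most. Unc5b reaches 10 CPM only through DehydroLCA replicate 1.

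Large rises were ranked among genes with a mean of 10 CPM or more in either group. The highest-ranked genes encode a guidance receptor, a nuclear lamina protein and a nuclear receptor. Unc5b, a receptor for netrins, stood at 4.80, 4.49 and 4.14 CPM in control and at 16.8, 7.16 and 8.54 CPM with DehydroLCA. DehydroLCA replicate 1 was far above the other DehydroLCA libraries, which still lay above all control libraries (log2 fold change 1.28 ± 0.21, adjusted p = 0.000285). Without DehydroLCA replicate 1 the log2 fold change was 0.81 and still passed. Only that library was above 10 CPM, so the place of Unc5b in this ranking rests on it. Lmna (mm10 chr3:88481148-88503352, minus strand), which encodes lamins A and C of the nuclear envelope, was at 7.43, 6.94 and 6.55 CPM in control and at 16.4, 14.1 and 13.9 CPM with DehydroLCA. Every DehydroLCA library lay above every control library, a 2.13-fold rise (log2 1.09 ± 0.07, adjusted p = 5.63e-11). Lmnb1 and Lmnb2, the B-type lamins, stood at 513 and 528 CPM and at 70.6 and 73.1 CPM in control and DehydroLCA and did not pass (log2 0.04 ± 0.03 and 0.05 ± 0.04). Rxra (chr2:27677201-27763319, plus strand), the retinoid X receptor alpha that pairs with the vitamin D, liver X and other nuclear receptors, was at 22.1, 19.4 and 22.4 CPM in control and at 39.2, 38.5 and 36.0 CPM with DehydroLCA. The groups were well apart, a 1.78-fold rise (log2 0.83 ± 0.07, adjusted p = 7.12e-09), while Rxrb did not pass (log2 -0.03 ± 0.04).

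The other large rises were in genes of varied roles. Mical2, which oxidises actin, stood at 8.26 ± 0.980 CPM in control (SD, n = 3, as for the other means below) and rose to 15.3, 13.1 and 13.8 CPM (log2 0.77 ± 0.12). Srgap3, a GTPase-activating protein, rose by 0.56 ± 0.08 on the log2 scale. Rnf43, a ubiquitin ligase that removes Wnt receptors, rose from 9.88, 7.96 and 8.73 CPM to 13.7, 14.5 and 13.7 CPM (log2 0.66 ± 0.09), and the ligand gene Wnt10b rose by 0.48 ± 0.11 but did not pass without control replicate 3 or without DehydroLCA replicate 3 (adjusted p up to 0.0573). Gcnt1, which builds core 2 O-glycans, rose by 0.61 ± 0.07. Slc15a1, a peptide transporter, rose by 0.55 ± 0.12, Fam129b by 0.56 ± 0.07 and Smim3 by 0.47 ± 0.09. Lta, the gene of the cytokine lymphotoxin alpha, stood at 194, 195 and 209 CPM in control and at 275, 284 and 302 CPM with DehydroLCA. Its groups did not overlap (log2 0.53 ± 0.11, adjusted p = 0.00353).

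**Figure D2:**
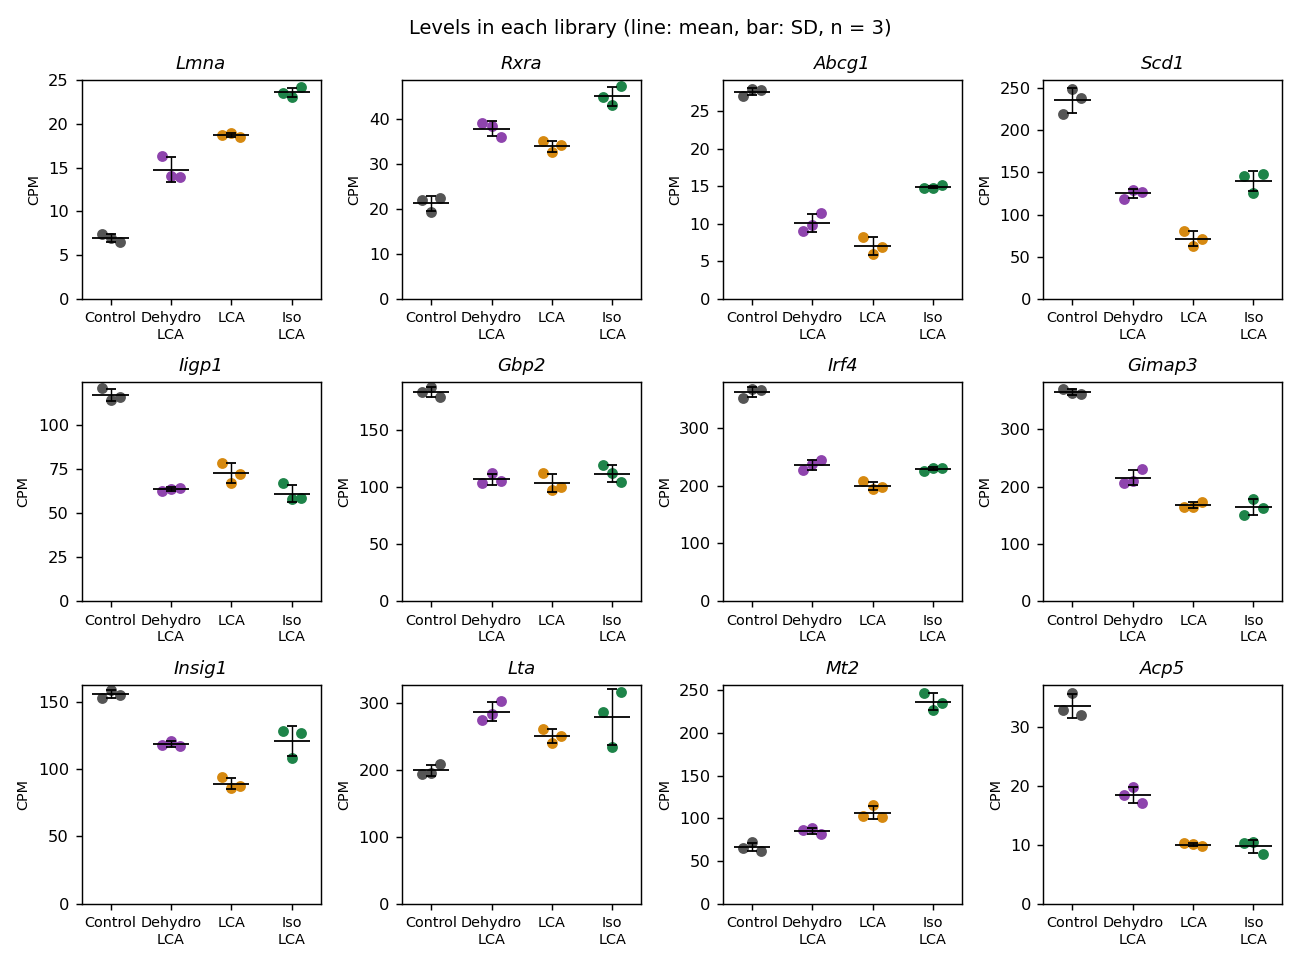
Each point is the level of a gene in 1 library, in CPM on a linear axis from 0, for control, DehydroLCA, LCA and IsoLCA (3 libraries each). Horizontal lines are group means and bars are SD. With DehydroLCA, Lmna, Rxra, Lta and Mt2 lie above control and the other 8 genes lie below it in every library.

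The largest fall at 10 CPM or more was in a sterol export gene. Abcg1, a transporter that moves sterol out of cells, stood at 27.0, 27.9 and 27.8 CPM in control and at 9.07, 9.88 and 11.4 CPM with DehydroLCA. All 3 DehydroLCA libraries were far below control, a 2.72-fold fall (log2 -1.44 ± 0.09, adjusted p = 5.63e-11). Abca1, the exporter that loads sterol onto apolipoprotein A-I, was scarce at 0.774, 1.02 and 0.773 CPM in control and fell to 0.210, 0.250 and 0.0577 CPM. Its groups did not overlap either, a 4.93-fold fall with a wide error (log2 -2.30 ± 0.32, adjusted p = 3.16e-05). Both are classical target genes of the liver X receptors. In the list of 13 tested genes of liver X receptors and their targets, 7 fell, 0 rose and 6 did not pass, with a median log2 fold change of -0.23. The other members that fell were Scd1, Srebf1, Arl4c (-0.23 ± 0.03), Lpcat3 (-0.19 ± 0.04), a lysophospholipid acyltransferase, and Mylip (-0.40 ± 0.12), a ubiquitin ligase. Mylip did not pass when any 1 of the 6 libraries was left out (adjusted p up to 0.145). The receptors themselves did not pass, with Nr1h2 at 58.2 and 57.1 CPM (log2 -0.03 ± 0.05) and Nr1h3 at 0.509 and 0.637 CPM (0.33 ± 0.26).

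Genes of fatty acid synthesis were also lower in part, and Scd1 and Srebf1 are counted in both this list and the liver X receptor list. Of 17 tested, 10 fell, 0 rose and 7 did not pass (median log2 -0.23). Scd1 and Scd2 encode stearoyl-CoA desaturases, which make monounsaturated fatty acids. Scd1 stood at 219, 249 and 238 CPM in control and at 119, 129 and 127 CPM with DehydroLCA. This was a 1.88-fold fall with no overlap (log2 -0.91 ± 0.10, adjusted p = 1.33e-06). Scd2 went from 1856, 1944 and 1896 CPM to 1263, 1347 and 1324 CPM. It fell 1.45-fold (log2 -0.53 ± 0.05, adjusted p = 5.21e-08). Srebf1, the gene of the SREBP1 factor that drives this pathway, fell from 190.2 ± 3.84 to 155 ± 3.28 CPM (log2 -0.30 ± 0.04). The desaturase gene Fads2 fell by 0.31 ± 0.06 on the log2 scale. Fasn, the fatty acid synthase, was at 794, 782 and 796 CPM in control and at 699, 696 and 763 CPM with DehydroLCA, and did not pass (adjusted p = 0.221). Acly, the ATP citrate lyase, fell by 0.23 ± 0.05, and did not pass without control replicate 2 (adjusted p = 0.0511). The count of members that fell was 5 without control replicate 2 and 6 without DehydroLCA replicate 3.

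Cholesterol synthesis genes were lower in part. Of 27 members, 16 fell, 0 rose and 11 did not pass, with a median log2 fold change of -0.19. The falls ran along the pathway. Acat2, at its first step, fell by 0.32 ± 0.05. Pmvk and Mvd, which act on phosphorylated mevalonate, fell by 0.33 ± 0.06 and 0.31 ± 0.06. Nsdhl and Dhcr7, late sterol enzymes, fell by 0.33 ± 0.06 and 0.37 ± 0.05. Insig1, a sterol sensor that retains SREBPs in the endoplasmic reticulum and is itself an SREBP target, stood at 153, 159 and 155 CPM in control and at 118, 121 and 117 CPM with DehydroLCA. Its groups did not overlap (log2 -0.39 ± 0.07, adjusted p = 0.000416). Hmgcs1, an early synthase of the pathway, was at 415, 452 and 430.4 CPM in control and at 365, 379.8 and 348 CPM with DehydroLCA (log2 -0.25 ± 0.06, adjusted p = 0.00968). It did not pass without control replicate 2 or without DehydroLCA replicate 3 (adjusted p up to 0.0736). Sqle and Lss did not pass (log2 -0.11 ± 0.06 and -0.14 ± 0.06). The number that fell dropped to 8 without control replicate 2 and to 11 without DehydroLCA replicate 1.

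A sterol regulatory element of the letters TCACNCCAC, on either strand, was searched in the 250 bases before the RefSeq gene start (GRCm38.p6). It was found in 1 of 19 cholesterol synthesis genes with a sequence, and in 0.92% of the 9669 tested genes with one. The 1 gene was Hmgcs1 (chr13:119690101-119690350, plus strand), whose promoter is shown because it holds the only match among the sterol genes that fell. Capitals mark the match at bases -137 to -129 from the start.
Hmgcs1: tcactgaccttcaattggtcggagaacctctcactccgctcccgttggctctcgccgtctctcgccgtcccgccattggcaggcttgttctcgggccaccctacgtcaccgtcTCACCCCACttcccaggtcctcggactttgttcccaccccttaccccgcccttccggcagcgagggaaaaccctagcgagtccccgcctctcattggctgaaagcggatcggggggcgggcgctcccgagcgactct
A match is a description of the letters and not a bound site.

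Receptors and carriers known for bile acids were mostly silent in these cells. Of 28 genes on the list, 12 passed the filter on low counts, of which 2 rose and 10 did not pass. Nr1h4, the farnesoid X receptor, its target Nr0b2 and the vitamin D target Cyp24a1 had 0 counts in all 6 libraries. Gpbar1, the membrane bile acid receptor, reached at most 0.0600 CPM. Vdr, the vitamin D receptor, was at 2.23, 3.16 and 2.60 CPM in control and at 3.27, 3.13 and 3.26 CPM with DehydroLCA, and the groups overlapped (log2 0.28 ± 0.16, adjusted p = 0.362). Rxra and Abcb1b, a P-glycoprotein gene, were the members that rose. Abcb1b rose by 0.14 ± 0.04, and did not pass without control replicate 1 or 2 or without DehydroLCA replicate 2 or 3 (adjusted p up to 0.0841). Nr4a1, an orphan nuclear receptor, did not pass (log2 -0.11 ± 0.08).

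Glycolysis and hypoxia response genes fell together by small amounts. Of 36 members, 23 fell, 0 rose and 13 did not pass (median log2 -0.19). Aldoc, a brain-type aldolase, stood at 42.5, 51.8 and 41.3 CPM in control and at 26.2, 29.4 and 28.4 CPM with DehydroLCA. The control libraries were spread over a wide range, but all lay above DehydroLCA (log2 -0.69 ± 0.11, adjusted p = 0.000240). Bnip3l, a mitophagy receptor, was at 148, 174 and 156 CPM in control and at 108, 115 and 109.6 CPM with DehydroLCA (log2 -0.52 ± 0.08). Here too control replicate 2 was the highest control library. Ddit4, an inhibitor of mTORC1, fell by 0.28 ± 0.04, the lactate exporter Slc16a3 by 0.31 ± 0.06, the oxygen-sensing hydroxylase Egln3 by 0.45 ± 0.09 and phosphoglycerate kinase Pgk1 by 0.26 ± 0.05. Slc2a3, a glucose transporter, was at 312, 389.6 and 324 CPM in control and at 241, 270.4 and 253 CPM with DehydroLCA (log2 -0.42 ± 0.09), and did not pass without control replicate 2 (adjusted p = 0.0502). Slc2a1, the other main glucose transporter, fell by 0.24 ± 0.06, and did not pass without control replicate 2 or 3 or without DehydroLCA replicate 1 (adjusted p up to 0.110). Ldha, lactate dehydrogenase, was at 3008, 3321 and 3409 CPM in control and 2897, 2938 and 2829 CPM with DehydroLCA, and did not pass (log2 -0.17 ± 0.06, adjusted p = 0.0754). With 1 library left out, Ldha passed only without control replicate 1. The count of members that fell moved with single libraries, from 8 without control replicate 2 to 29 without control replicate 1. It was 11, 21 and 14 without DehydroLCA replicates 1, 2 and 3, and 17 without control replicate 3. Respiratory chain genes encoded in the nucleus did not share the fall: of 54 members, 4 fell, 0 rose and 50 did not pass (median -0.01). The 4 were Cox7b, Cycs, Uqcrh and Cox6b1, at -0.14 to -0.23, and of these Cox7b passed whichever library was left out, while Cycs, Uqcrh and Cox6b1 each missed in 3 of the 6 such fits. The letters ACGTG, the core of a hypoxia response element, were searched on both strands in the 250 bases before the start. They were in 18 of 32 glycolysis and hypoxia genes with a sequence (56.2%) and in 9 of 19 that fell (47.4%). Over all tested genes with a sequence the share was 22.3%. The list was chosen for these pathways, so its share above all genes is not a result of DehydroLCA. The matches describe letters only.

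**Figure D3:**
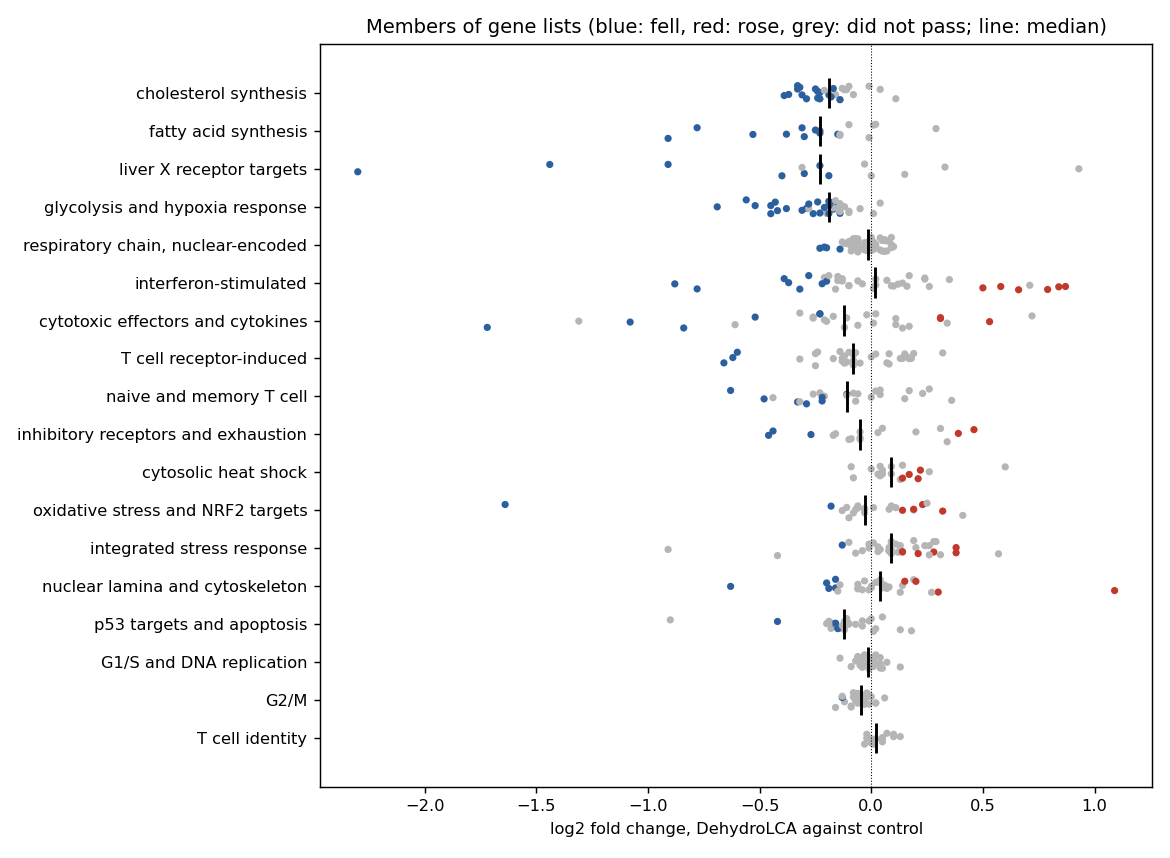
Each point is 1 tested member of the named list, placed by its log2 fold change, DehydroLCA against control. Blue members fell, red rose, grey did not pass, and black bars are list medians, which lie at -0.19 for cholesterol synthesis and for glycolysis and hypoxia, and at -0.01 for the respiratory chain.

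Interferon-stimulated genes moved in both directions. Of 40 members, 8 fell, 6 rose and 26 did not pass, with a median of 0.01. Several of those that fell encode guanosine triphosphatases. Iigp1, an immunity-related GTPase, stood at 121, 114 and 116 CPM in control and at 62.5, 63.7 and 64.5 CPM with DehydroLCA. Both groups were tight and far apart, a 1.84-fold fall (log2 -0.88 ± 0.06, adjusted p = 5.98e-10). Gbp2, a guanylate-binding protein, was at 183, 187 and 179 CPM in control and at 103, 112 and 105 CPM with DehydroLCA. It fell 1.72-fold (log2 -0.78 ± 0.06, adjusted p = 3.31e-09). Irf1, a transcription factor induced by interferons, was at 141, 130.2 and 134 CPM in control and at 103, 102 and 104 CPM with DehydroLCA (log2 -0.39 ± 0.04, adjusted p = 1.72e-06). Gbp5 fell by 0.37 ± 0.05, Gbp3 by 0.32 ± 0.06 and Igtp by 0.28 ± 0.05. Gbp6 fell by 0.22 ± 0.05, and missed the threshold without control replicate 1 or without DehydroLCA replicate 2 (adjusted p up to 0.0828).

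The 6 that rose were all scarce, with every library below 10 CPM. Oasl2, an oligoadenylate synthetase-like gene, stood at 2.20, 2.35 and 1.49 CPM in control and at 3.72, 3.28 and 3.92 CPM with DehydroLCA, a 1.82-fold rise with no overlap (log2 0.87 ± 0.16, adjusted p = 0.000843). Oasl1 was at 1.61, 1.80 and 1.22 CPM and at 2.52, 2.63 and 2.80 CPM (log2 0.79 ± 0.15, adjusted p = 0.00180). These 2 genes passed whichever library was left out. Isg15, the ubiquitin-like modifier, was at 5.79, 7.71 and 4.70 CPM in control and at 9.10, 9.04 and 7.56 CPM with DehydroLCA. One control library lay above the lowest DehydroLCA library, so the groups overlapped (log2 0.50 ± 0.14, adjusted p = 0.0291). Oas2 (0.84 ± 0.22), Ifit3 (0.66 ± 0.17) and Rtp4 (0.58 ± 0.17) also rose. Rtp4 missed the threshold whichever library was left out (adjusted p up to 0.173). Ifit3 passed in 1 of the 6 such fits (adjusted p up to 0.0903). Isg15 and Oas2 each passed in 2 of them (adjusted p up to 0.189 and 0.119). Of the list, 2 members rose without control replicate 1 or without DehydroLCA replicate 1. The number was 3 without control replicate 3 or without DehydroLCA replicate 2 or 3.

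**Figure D4:**
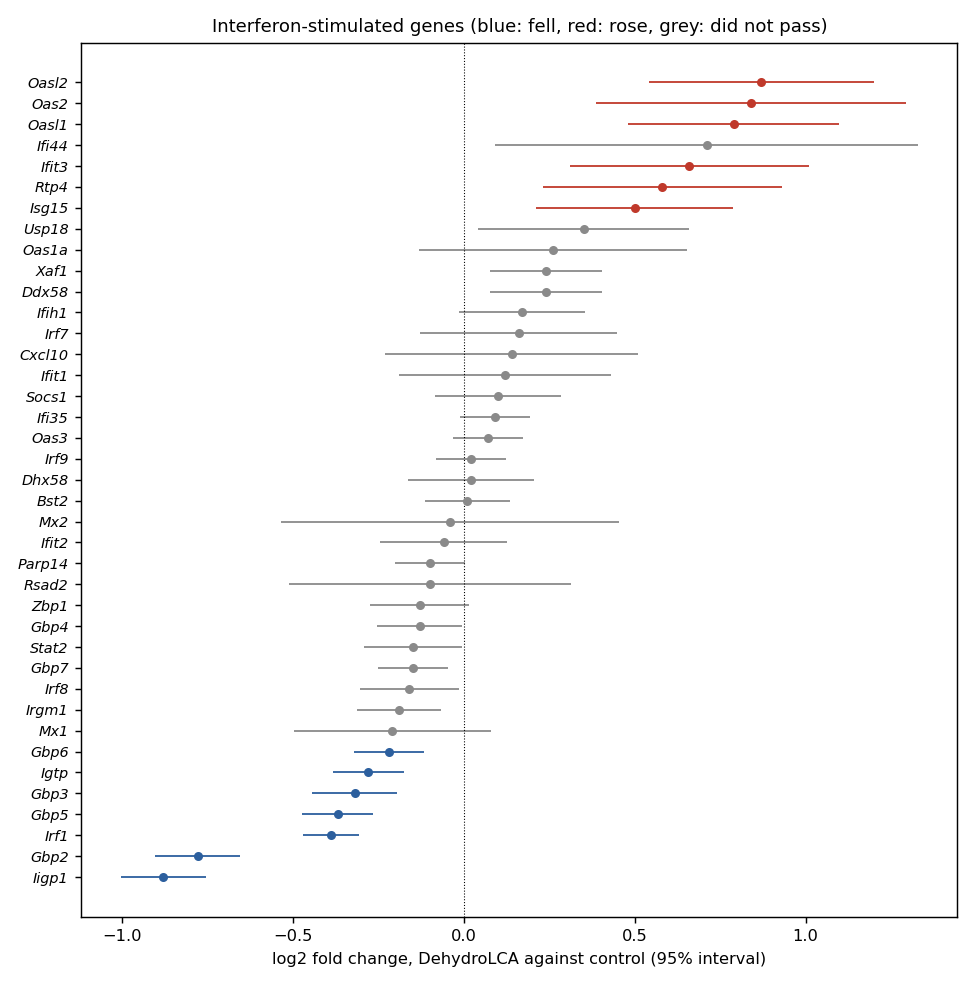
Log2 fold change, DehydroLCA against control, with its 95% interval for interferon-stimulated genes of the list, ordered by size. Those that fell (blue) include Iigp1 at -0.88 and Gbp2 at -0.78, and the 6 that rose (red) run from Isg15 at 0.50 to Oasl2 at 0.87.

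Promoters of interferon-stimulated genes are shown for both directions so that members that rose and members that fell can be read side by side. Interferon sites of 2 kinds were searched on both strands in the 250 bases before the start. The interferon-stimulated response element, GAAANNGAAA, was in 15 of 28 list members with a sequence, against 2.82% of the 9669 tested genes. The gamma-activated site, TTCNNNGAA, was in 8 of 28, against 6.03%. The list was chosen for the interferon response, so its shares above all genes are not a result of DehydroLCA. Among the members that fell, 3 of 5 with a sequence held the response element (Gbp2, Gbp5, Igtp) and 3 of 5 the gamma-activated site (Gbp5, Irf1, Igtp). Among those that rose, 2 of 4 held the response element (Isg15, Ifit3) and 0 of 4 the gamma-activated site. The capitals mark the matches: the gamma-activated site at -90 to -82 in Irf1 (chr11:53769764-53770013, plus), that site at -45 to -37 and the response element at -34 to -25 in Igtp (chr11:58199306-58199555, plus), the response element on the opposite strand at -59 to -50 in Gbp2 (chr3:142620413-142620662, plus), 3 overlapping response elements from -78 to -57 in Isg15 (chr4:156200819-156201068, minus) and 2 on the opposite strand at -156 to -147 and -122 to -113 in Ifit3 (chr19:34583279-34583528, plus).
Irf1: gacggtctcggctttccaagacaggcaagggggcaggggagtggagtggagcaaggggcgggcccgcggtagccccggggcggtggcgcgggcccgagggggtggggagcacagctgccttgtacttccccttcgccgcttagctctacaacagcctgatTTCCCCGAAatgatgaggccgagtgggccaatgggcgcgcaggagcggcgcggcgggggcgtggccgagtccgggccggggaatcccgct
Igtp: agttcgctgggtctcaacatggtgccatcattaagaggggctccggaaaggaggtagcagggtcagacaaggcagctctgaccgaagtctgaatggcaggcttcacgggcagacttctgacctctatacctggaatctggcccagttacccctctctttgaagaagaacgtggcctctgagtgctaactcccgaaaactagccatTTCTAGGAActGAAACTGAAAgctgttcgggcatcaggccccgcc
Gbp2: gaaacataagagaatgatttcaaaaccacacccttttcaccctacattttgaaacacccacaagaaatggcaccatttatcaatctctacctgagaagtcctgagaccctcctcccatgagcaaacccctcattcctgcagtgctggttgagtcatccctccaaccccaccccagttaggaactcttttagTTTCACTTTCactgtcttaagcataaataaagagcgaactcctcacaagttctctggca
Isg15: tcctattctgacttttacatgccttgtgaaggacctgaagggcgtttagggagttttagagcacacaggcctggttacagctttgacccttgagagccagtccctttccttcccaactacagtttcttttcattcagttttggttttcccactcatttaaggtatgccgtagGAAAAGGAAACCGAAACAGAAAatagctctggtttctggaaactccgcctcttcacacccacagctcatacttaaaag
Ifit3: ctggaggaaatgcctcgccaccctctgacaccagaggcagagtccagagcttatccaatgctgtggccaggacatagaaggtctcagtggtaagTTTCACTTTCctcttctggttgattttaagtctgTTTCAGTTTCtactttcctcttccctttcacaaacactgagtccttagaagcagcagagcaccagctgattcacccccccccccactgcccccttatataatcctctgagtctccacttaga
The number of sequences is small, and the matches describe letters only.

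Cytokine and chemokine genes were lower or higher one by one rather than together. Of 29 cytotoxic effector and cytokine genes, 6 fell, 3 rose and 20 did not pass (median -0.12). Ccl3, a chemokine that draws other leukocytes, stood at 2.35, 2.04 and 1.88 CPM in control and at 0.480, 0.782 and 0.635 CPM with DehydroLCA. The groups did not overlap, a 3.30-fold fall (log2 -1.72 ± 0.19, adjusted p = 1.72e-06). Ccl4, its close relative, fell from 2.21 ± 0.142 to 1.04 ± 0.0402 CPM (log2 -1.08 ± 0.17, adjusted p = 0.000139). Ifng, which encodes interferon gamma, was at 3.56, 5.48 and 4.25 CPM in control and at 2.70, 2.38 and 2.34 CPM with DehydroLCA. It fell 1.79-fold (log2 -0.84 ± 0.19, adjusted p = 0.00688), and did not pass without control replicate 2 (adjusted p = 0.0736). Ifngr1, a chain of its receptor, fell from 239.6 ± 6.06 to 174 ± 5.40 CPM (log2 -0.46 ± 0.06, adjusted p = 9.79e-06). Tnf was at 39.0, 35.7 and 39.5 CPM and at 47.0, 46.5 and 48.4 CPM, a rise of 0.31 ± 0.07, and Gzmc rose by 0.31 ± 0.07. The main cytolytic genes did not pass. Gzmb, granzyme B, was at 3611, 3696 and 4045 CPM in control and at 3412, 3308 and 3373 CPM with DehydroLCA (log2 -0.17 ± 0.09, adjusted p = 0.284), and Prf1, perforin, was at 25.2, 31.0 and 31.8 CPM and at 21.6, 24.4 and 24.5 CPM (log2 -0.32 ± 0.10, adjusted p = 0.0708). For both genes the groups did not overlap, as for 26.5% of all tested genes. With 1 library left out, Prf1 passed only without control replicate 1 and Gzmb in no fit. The count of members that fell was 3 without control replicate 2 and 4 without DehydroLCA replicate 1.

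Irf4, which scales with T cell receptor signal and supports effector growth, stood at 352, 368 and 365 CPM in control and at 227, 238 and 244 CPM with DehydroLCA. All DehydroLCA libraries were lower, with a small error (log2 -0.62 ± 0.04, adjusted p = 5.63e-11). Prdm1, which encodes Blimp-1 and drives terminal effector differentiation, fell from 30.5 ± 0.231 to 21.2 ± 1.21 CPM (log2 -0.52 ± 0.06). Tbx21, which encodes T-bet, fell by 0.23 ± 0.06, but not without control replicate 2 or DehydroLCA replicate 1 (adjusted p up to 0.0855), and Eomes did not pass (0.01 ± 0.08). Over all tested genes 3.41% were called lower. Of 34 genes induced through the T cell receptor, 3 fell, 0 rose and 31 did not pass (median -0.08). Besides Irf4 these were Egr3, from 8.77 ± 0.776 to 5.54 ± 0.0416 CPM (log2 -0.66 ± 0.10), and Jun, from 23.9 ± 2.41 to 15.8 ± 1.12 CPM (log2 -0.60 ± 0.10). Other genes of the list gave no call, among them Nr4a1, Cd69 (0.13 ± 0.06), Il2ra (-0.24 ± 0.08, adjusted p = 0.0590) and Myc (-0.12 ± 0.07). With 1 library left out, Il2ra passed only without control replicate 1.

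Genes of naive and memory cells fell or did not pass. Of 25, 7 fell, 0 rose and 18 did not pass (median -0.11), and 3 fell without DehydroLCA replicate 1 and 4 without control replicate 2 or without DehydroLCA replicate 3. Lef1 fell by 0.33 ± 0.05 and Ly6c1 by 0.48 ± 0.09, while Il7r, the interleukin-7 receptor, fell by 0.22 ± 0.05 but not without control replicate 2 or DehydroLCA replicate 1 (adjusted p up to 0.0954). Tcf7, the gene of TCF1, was at 121, 116 and 118 CPM and at 141, 136 and 123 CPM. Its groups did not overlap, but the test did not pass (log2 0.17 ± 0.13, adjusted p = 0.546). Ccr7 (0.04 ± 0.08) and Klf2 (-0.44 ± 0.15, adjusted p = 0.0897) did not pass either. With 1 library left out, Klf2 passed only without control replicate 3. Of 24 trafficking and adhesion genes 4 fell, 0 rose and 20 did not pass, where 3.41% of all tested genes fell. The 4 included the integrin chains Itga4 (-0.58 ± 0.09) and Itgb7 (-0.20 ± 0.05), and Rgs1 (-0.49 ± 0.09), a brake on chemokine receptor signalling.

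Inhibitory receptors did not move as a group. Of 17 tested, 3 fell, 2 rose and 12 did not pass (median -0.05), where 5.83% of all tested genes were called. Tox, a factor of exhausted T cells, rose from 17.6 ± 0.345 to 23.1 ± 1.41 CPM (log2 0.39 ± 0.06) and Cd244 by 0.46 ± 0.09. Entpd1, which encodes CD39, fell by 0.46 ± 0.09 and Tigit by 0.44 ± 0.09. Lag3 fell by 0.27 ± 0.07, and did not pass without control replicate 2 or any 1 of the DehydroLCA libraries (adjusted p up to 0.159). Pdcd1, which encodes PD-1, was at 22.3, 24.2 and 22.7 CPM in control and at 22.8, 21.7 and 22.2 CPM with DehydroLCA, with no call (log2 -0.05 ± 0.09). In cytokine signalling, 6 of 27 genes fell, 0 rose and 21 did not pass (median -0.01). Apart from Ifngr1 they were Lif (-0.60 ± 0.13), Il21r (-0.31 ± 0.05), Stat4, Il12rb2, a chain of the interleukin-12 receptor (-0.23 ± 0.05), and Stat3 (-0.18 ± 0.03). Stat4 fell by 0.25 ± 0.06, and did not pass without control replicate 2 or without DehydroLCA replicate 1 or 3 (adjusted p up to 0.123).

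Stress responses rose slightly in some members. Of 39 genes of the integrated stress response, which ATF4 drives when amino acids run short, 5 rose, 1 fell and 33 did not pass (median 0.09). Trib3, a pseudokinase target of ATF4, stood at 64.2, 73.6 and 72.4 CPM in control and at 92.1, 92.3 and 89.4 CPM with DehydroLCA. The groups did not overlap (log2 0.38 ± 0.07, adjusted p = 0.00180). Slc3a2, the heavy chain of amino acid transporters, rose by 0.21 ± 0.04. Asns, asparagine synthetase, rose by 0.28 ± 0.06 and Aars, the alanyl-tRNA synthetase, by 0.14 ± 0.03, and both missed the threshold without control replicate 1 (adjusted p = 0.0663 and 0.119). Slc7a3 rose by 0.38 ± 0.10 and Wars fell by 0.13 ± 0.04, and each passed in a single fit with 1 library left out, without DehydroLCA replicate 2 for Slc7a3 and without control replicate 1 for Wars (adjusted p up to 0.141 and 0.165). The members that rose numbered 2 without control replicate 1 and 12 at most under another scaling of library size. Atf4 itself did not pass, at 464 ± 38.9 and 462 ± 5.02 CPM (log2 -0.01 ± 0.05), nor did Ddit3 (-0.04 ± 0.10) or Chac1 (0.29 ± 0.10).

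Over all tested genes 2.41% were called higher and 3.41% lower. Of 18 cytosolic heat shock genes 4 rose, 0 fell and 14 did not pass (median 0.09). Hspa8, the constitutive HSP70 chaperone, was at 2343, 2413 and 2546 CPM in control and at 2857, 2863 and 2776 CPM with DehydroLCA (log2 0.22 ± 0.04, adjusted p = 0.000714). Its cochaperone gene Dnaja1 rose by 0.21 ± 0.04. Hsph1 and Chordc1 rose by 0.17 ± 0.04 and 0.14 ± 0.04, and both missed the threshold without control replicate 1 or 2 and in other such fits (adjusted p up to 0.121 and 0.148). The stress-inducible Hspa1b did not pass (0.60 ± 0.27). Of 24 genes of oxidative stress and NRF2, 4 rose, 2 fell and 18 did not pass (median -0.03). Gclm and Gclc, the subunits of the enzyme that starts glutathione synthesis, rose by 0.32 ± 0.05 and 0.23 ± 0.04. Txnrd1, thioredoxin reductase, rose by 0.19 ± 0.04, but not without control replicate 2 or DehydroLCA replicate 1 (adjusted p up to 0.0919). Osgin1 moved the other way, from 2.51, 2.97 and 2.13 CPM to 0.811, 0.657 and 0.952 CPM (log2 -1.64 ± 0.20, adjusted p = 5.09e-06). Hmox1, heme oxygenase, did not pass (0.19 ± 0.12). In the endoplasmic reticulum's unfolded protein response 1 of 20 genes rose, Atf6 (0.17 ± 0.04), 0 fell and 19 did not pass, and up to 4 rose under another scaling of library size.

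Of 11 metallothionein and zinc genes 2 rose, 0 fell and 9 did not pass (median 0.02). Mt2, a small protein that binds zinc, was at 65.7, 71.8 and 61.8 CPM in control and at 85.9, 88.6 and 81.7 CPM with DehydroLCA (log2 0.36 ± 0.07, adjusted p = 0.00299). Slc30a1, the zinc exporter of the plasma membrane, rose by 0.32 ± 0.07. Mt1 was at 92.7 ± 3.13 and 98.9 ± 4.39 CPM and did not pass (0.09 ± 0.06). Both Mt2 and Slc30a1 passed whichever library was left out.

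Genes of the dividing cell gave almost no calls. None of 30 genes of G1/S and DNA replication passed (median -0.01), with Mcm6 at -0.04 ± 0.04 and Rrm2 at 0.00 within its error of 0.04. Of 32 G2/M genes 1 fell, Cenpa (-0.13 ± 0.04), which passed only without control replicate 3 when 1 library was left out (adjusted p up to 0.146). Mki67, the proliferation marker, was at 1662, 1622 and 1416 CPM in control and at 1535, 1574 and 1604 CPM with DehydroLCA, and the groups overlapped (log2 0.00 ± 0.05, adjusted p = 0.983).

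DehydroLCA was compared directly with LCA and IsoLCA, which share its dose and time. Against LCA, 2317 of 13044 genes (17.8%) were called, 1340 higher and 977 lower with DehydroLCA. Scaling by total counts turned that split to 1093 higher and 1377 lower. Against IsoLCA, 218 genes (1.67%) were called, 156 higher and 62 lower. These are the pairs of acids that were compared, and p-values were adjusted over all tested genes within each. The count against LCA was 1189 without LCA replicate 2, 1377 without DehydroLCA replicate 2 and 1448 without DehydroLCA replicate 1. The count against IsoLCA was 98 without DehydroLCA replicate 3, 106 without IsoLCA replicate 1, 126 without DehydroLCA replicate 1 and 136 without DehydroLCA replicate 2.

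Against LCA, many genes of cholesterol synthesis and of glycolysis and hypoxia were higher with DehydroLCA, and many of the integrated stress response and interferon lists were lower. Of the 27 cholesterol synthesis genes 23 were higher and 0 lower (median log2 difference 0.35), and of the 36 glycolysis and hypoxia genes 31 were higher and 0 lower (0.38). Of 54 respiratory chain genes encoded in the nucleus 23 were higher and 0 lower (0.12). Of 30 G1/S genes 13 were higher and 0 lower (0.11), and of 24 trafficking genes 11 were higher and 2 lower (0.20). Of 26 Myc and ribosome biogenesis genes 11 were lower and 0 higher (-0.14). P4ha2, a collagen prolyl hydroxylase of the hypoxia response, stood at 12.5, 13.1 and 12.8 CPM with DehydroLCA and at 4.92, 4.32 and 5.08 CPM with LCA. It was higher by 1.43 ± 0.19, the largest difference upward among called genes at 10 CPM or more (adjusted p = 1.34e-05). Aldoc was at 26.2, 29.4 and 28.4 CPM against 10.9 ± 0.955 CPM with LCA (1.36 ± 0.12), and Acvrl1, Pygl and Endou were higher by 1.11 to 1.15. Scd1 was at 119, 129 and 127 CPM against 80.2, 62.2 and 71.2 CPM (0.81 ± 0.10), and Klf2, a factor of quiescent T cells, was higher by 0.88 ± 0.16. Of the 39 integrated stress response genes 28 were lower and 0 higher (median -0.26). The other stress lists did not run that way: 4 unfolded protein response genes were higher and 1 lower (median 0.07), 5 genes of the NRF2 list were higher and 6 lower (0.07), and 3 of 18 heat shock genes were lower and 0 higher (-0.08), 6 at most under another scaling. Cth, which makes cysteine, was at 6.15, 6.38 and 6.26 CPM with DehydroLCA and at 12.8, 17.3 and 14.5 CPM with LCA (-1.24 ± 0.16), and Atf5 and Aldh1l2 were lower by 0.90 ± 0.08 and 0.99 ± 0.14. Of the 40 interferon-stimulated genes 29 were lower and 0 higher (median -0.35), including Isg15 at 9.10, 9.04 and 7.56 CPM against 16.5, 15.7 and 15.2 CPM (-0.88 ± 0.12). Cd74, the class II invariant chain, was at 5.55, 5.38 and 4.93 CPM against 13.1 ± 1.01 CPM (-1.31 ± 0.10, adjusted p = 4.26e-09). Kcnq1ot1, an imprinted noncoding RNA, was lower by 1.25 ± 0.32 and did not pass without LCA replicate 2 (adjusted p = 0.0733).

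Against IsoLCA, the largest differences among genes at 10 CPM or more were in metallothioneins. Mt2 stood at 85.9, 88.6 and 81.7 CPM with DehydroLCA and at 247, 227 and 235 CPM with IsoLCA (-1.47 ± 0.07, adjusted p = 2.31e-13). Mt1 was at 98.5, 103 and 94.7 CPM against 244, 228 and 227 CPM (-1.24 ± 0.06). Slc30a1 was lower by 0.48 ± 0.06 and the zinc importer gene Slc39a10 was higher, at 48.7, 49.2 and 48.8 CPM against 31.1, 26.6 and 32.6 CPM (0.70 ± 0.08). Lmna was at 16.4, 14.1 and 13.9 CPM with DehydroLCA, at 23.6, 23.1 and 24.2 CPM with IsoLCA and at 18.7 ± 0.269 CPM with LCA, lower than with either acid (-0.67 ± 0.06 and -0.34 ± 0.06). Abcg1 lay at 9.07, 9.88 and 11.4 CPM, below IsoLCA at 14.8, 14.8 and 15.1 CPM (-0.56 ± 0.09) and above LCA at 8.28, 5.97 and 6.88 CPM (0.52 ± 0.10). Cxcr6, a chemokine receptor of tissue-resident T cells, was lower by 0.51 ± 0.09. Slc15a1 was lower by 0.48 ± 0.11, but not without IsoLCA replicate 1 or 3 or any 1 of the DehydroLCA libraries (adjusted p up to 0.130). Genes higher than with IsoLCA included Acp5 (0.93 ± 0.08), a lysosomal phosphatase, Treml2 (0.82 ± 0.04), Podnl1 (0.76 ± 0.10) and Tubb6 (0.75 ± 0.07), a beta tubulin. Of the interferon-stimulated genes 8 of 40 were higher and 0 lower (median 0.19), with Oasl2 at 1.06 ± 0.16. In the cholesterol list 0 of 27 passed in either direction.

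Some genes changed by DehydroLCA did not pass in the direct test against LCA, against IsoLCA or against both. Rxra differed from LCA by 0.15 with a 95% interval of 0.02 to 0.29 (adjusted p = 0.102), and was lower than with IsoLCA by 0.26 ± 0.06, a call that held only without IsoLCA replicate 2 (adjusted p up to 0.236 in the other such fits). Gbp2 differed from LCA by 0.05 (-0.08 to 0.17) and from IsoLCA by -0.07 (-0.19 to 0.06). Irf1 differed from LCA by -0.04 (-0.14 to 0.05) and from IsoLCA by 0.10 (0.01 to 0.20). Lta differed from LCA by 0.20 (-0.03 to 0.42) and from IsoLCA by 0.04 (-0.18 to 0.26). Hmgcs1 differed from IsoLCA by -0.08 (-0.20 to 0.04) and Scd1 from IsoLCA by -0.16 (-0.37 to 0.04). These intervals are not adjusted for the number of genes. They limit the size of a difference and do not show that the acids act alike.

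**Figure D5:**
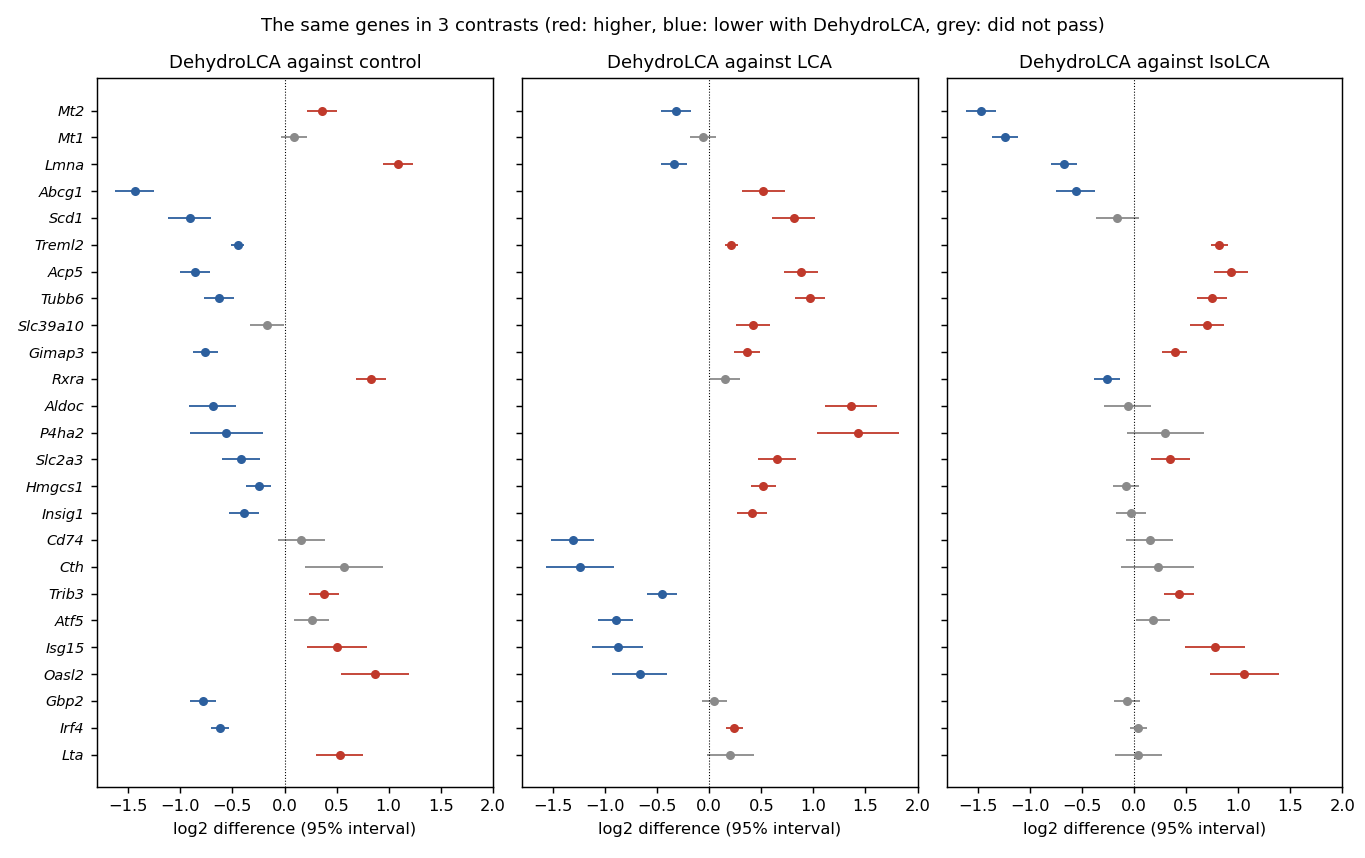
Log2 difference with its 95% interval for the same genes in 3 contrasts: DehydroLCA against control, against LCA and against IsoLCA. Red is higher and blue lower with DehydroLCA at an adjusted p under 0.05, and grey did not pass. Mt2 passes in all 3 contrasts, at 0.36 against control, -0.32 against LCA and -1.47 against IsoLCA.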

How the data were processed

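Total RNA of mouse CD8+ T cells was sequenced in 24 libraries of 8 groups. The submitters' processing notes name STAR, HOMER and DESeq2 with GRCm38 and mm10 and no versions. Per the file headers, the authors deposited the output of HOMER as estimated counts per gene, summed over exons without normalization and condensed to 1 row per gene. The values move in steps of 0.5 and 29.43% are not whole, so they were rounded, with 0.5 going upward. No source used here gives the strand setting, so overlapping genes are uncertain.

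From these, edgeR 4.0.16 (R 4.3.3) fitted a quasi-likelihood model by group to all 24 libraries, with TMM scaling (factors 0.971 to 1.051) and its expression filter, which left 13044 of 24537 genes. The biological coefficient of variation was 4.41%. All 8 groups share 1 estimate of the spread. Contrasts were DehydroLCA against Control, LCA and IsoLCA, two-sided, adjusted by Benjamini-Hochberg over all tested genes. Replicates of 1 group differed beyond counting noise (chi-square per degree of freedom 2.83 to 14.92), so none was merged. The members and gene lists were chosen with earlier results of these data known. Lists are described by counts and medians without a set test.

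Named by rule were the 12 largest called rises and falls without overlap and with a mean of 10 CPM in either group, the 4 called members of each list with the smallest adjusted p (the 2 best expressed where none was called), a fixed set of T cell, sterol and stress genes, the 6 largest differences each way per direct contrast, and the 10 smallest adjusted p-values against control. Further list members, the Gimap genes and scarce genes beyond 2-fold were added after their values were seen. Alternatives were 3 other scalings, no filter, downward rounding, a replicate block, GC content and length correction, the libraries of each pair alone, DESeq2 1.42.0, and leaving out each library. The floor of 3 counts covers counting error only. The fit was also run on simulated counts to check the fold changes it returns. Those counts had the same spread for all genes, so that run does not test the p-values of these data. Promoter sequences are from RefSeq (GRCm38.p6), and 9669 of the 13044 tested genes had one. Some genes of the lists are counted but not reported here by name.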

Additional observations from a re-analysis of the deposited data

How the results depend on the processing

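No named gene that was called changed direction under any alternative run, but scaling by total counts turned the balance of higher and lower calls against control (433 and 415) and against LCA (1093 and 1377). Leaving out 1 library moved the counts of called genes furthest: against control they ran from 400 (without control replicate 2) to 625 (without control replicate 3), against LCA from 1189 to 2228 and against IsoLCA from 98 to 182. Every such fit lost 1 library, and the cause of the differences between these counts was not tested. Under every other alternative the total of called genes stayed within 1.5 times of the reported one. Calls in 1 direction moved further in 2 cases: lower against LCA, from 977 to 1624 with the 6 libraries alone, and lower against IsoLCA, from 62 to 102 with GC content and length corrected and the block. Among the lists, rises of integrated stress response genes ran from 5 to 12 and of unfolded protein response genes from 1 to 4 over the scalings. Against control the range was 744 (relative log expression scaling within edgeR) to 1031 (the 6 libraries alone). The DESeq2 test gave 792, total counts gave 848 (433 higher, 415 lower) and the GC content and length correction gave 849. The replicate block gave 891, 2533 and 283 calls in the 3 contrasts, and 987 against control with GC content and length corrected too. Deviations of same-numbered DehydroLCA and control libraries from their group means correlated at -0.021, 0.033 and -0.089. Those of LCA and IsoLCA correlated at 0.265, 0.148 and 0.075, and those of control and IsoLCA at -0.307, -0.013 and 0.03. With so few libraries per group, these values cannot settle whether equal replicate numbers pair the samples. Over the named genes, leaving out 1 library kept direction and side of the threshold in 1387 results, lost a call in 209 and gained one in 6. The other alternatives kept 2567, lost 36 and gained 61. Depth limits scarce genes: Abca1, at 0.0577 to 1.02 CPM in the 6 libraries, has an SE of 0.32 against 0.09 for Abcg1.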

Other observations

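Other gene families were lower with DehydroLCA. The Gimap genes, GTPases of lymphocyte survival in a cluster on chromosome 6, were noticed after their values were seen. Of 8 tested, 7 fell and 0 rose, and Gimap1 did not pass (-0.10 ± 0.04). Gimap3 stood at 371, 363 and 361 CPM in control and at 207, 210.1 and 230.0 CPM with DehydroLCA (log2 -0.76 ± 0.06, adjusted p = 2.68e-09). Gimap4 fell from 561 ± 13.1 to 381 ± 7.27 CPM, Gimap7 from 134 ± 6.29 to 89.1 ± 2.77 CPM and Gimap6 from 202 ± 4.11 to 142 ± 3.93 CPM, while Gimap8, Gimap5 and Gimap9 fell by 0.37 ± 0.08, 0.35 ± 0.04 and 0.26 ± 0.05. Interferon-inducible GTPases outside the list, also chosen after their values were seen, fell too: Tgtp1 by 0.62 ± 0.07, Tgtp2 by 0.54 ± 0.07, Ifi47 by 0.46 ± 0.05 and Irgm2 by 0.28 ± 0.04. Tgtp1 and Tgtp2 are close copies, and Gvin1 and Gm4070 carry almost the same counts over the same interval (both 1147 CPM in control and 799 CPM with DehydroLCA), so the reads of each pair cannot be told apart. The remaining large falls were in Acp5 (33.7 ± 2.02 to 18.5 ± 1.31 CPM), Tg (log2 -0.80 ± 0.10), Cd93 (-0.64 ± 0.07), Nrn1 (-0.64 ± 0.09) and Tubb6 (83.5 ± 2.10 to 54.0 ± 0.913 CPM). Treml2, a receptor of the TREM family, fell from 137 ± 2.48 to 100.4 ± 1.89 CPM.

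Several scarce genes changed by more than 2-fold and were also chosen after their values were seen. Plaur, the urokinase receptor, rose from 0.369 ± 0.0358 to 1.30 ± 0.117 CPM and Adora3, an adenosine receptor, from 1.14 ± 0.182 to 2.58 ± 0.311 CPM. Plpp3, a lipid phosphatase, rose from 0.148 ± 0.0217 to 0.667 ± 0.232 CPM. Tgm2, transglutaminase 2, fell from 5.13 ± 0.778 to 1.85 ± 0.106 CPM, Itga7 from 4.16 ± 0.693 to 1.40 ± 0.138 CPM and Selenbp1 from 7.66 ± 1.82 to 3.80 ± 0.280 CPM. Grin1 fell by 1.85 on the log2 scale, and without a stated strand setting its reads cannot be told apart from those of its antisense gene. Grin1 did not pass without control replicate 2 (adjusted p = 0.0566). Ahr, the aryl hydrocarbon receptor, rose from 2.40 ± 0.501 to 3.76 ± 0.321 CPM (0.65 ± 0.14) and was the only one of 11 tested genes of the Th17 and Treg list to pass, but not without control replicate 2 (adjusted p = 0.0664). Its repressor Ahrr was at 3.72, 1.44 and 1.67 CPM with DehydroLCA against 0.957 ± 0.0882 CPM in control, and did not pass without DehydroLCA replicate 1 (adjusted p = 0.0971), the library that was also highest for Unc5b and for Nlrp6 (1.65, 0.969 and 0.750 CPM). Nlrp6 did not pass without it either (adjusted p = 0.0939).

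Calls in the remaining lists were as follows, where 5.83% of all tested genes were called. Of 33 nuclear lamina and cytoskeleton genes 4 rose, 5 fell and 24 did not pass (median 0.04). Besides Lmna and Tubb6 the clearest were Lgals1, galectin 1 (0.30 ± 0.05), Vim, vimentin (0.15 ± 0.03), S100a10 (-0.20 ± 0.04) and Lbr, the lamin B receptor (-0.16 ± 0.03). Of 33 lysosome and autophagy genes 1 rose, Tfeb (0.29 ± 0.06), and 4 fell, led by Acp5 and the sterol carrier Npc2 (-0.20 ± 0.04). Of 29 p53 and apoptosis genes 4 fell and 0 rose (median -0.12), and of these only Trp53inp1 (-0.42 ± 0.09) passed whichever library was left out. Of 26 Myc and ribosome biogenesis genes 1 rose, Wdr74 (0.16 ± 0.05), and it passed only without control replicate 3 or without DehydroLCA replicate 2 (adjusted p up to 0.224). None of 19 tested fatty acid oxidation and PPAR genes passed in either direction (median -0.06). Of 19 antigen presentation genes 2 fell and 0 rose. H2-Ab1, a class II beta chain, was at 30.4, 34.9 and 29.4 CPM in control and at 20.8, 23.5 and 22.2 CPM with DehydroLCA (-0.51 ± 0.10), while its partner chain H2-Aa was at 0.0619 to 0.552 CPM and the class II regulator Ciita at 0.330 to 0.775 CPM in the 6 libraries, neither of which passed. Tap1 fell by 0.14 ± 0.04 and passed only without control replicate 3 (adjusted p up to 0.107). Of the markers of other cells, Pecam1 fell by 0.30 ± 0.06 and Zbtb7b, which encodes ThPOK, rose by 0.27 ± 0.05, while Cd4 was at 0.281 to 0.691 CPM with no call. Itgam fell from 0.373 ± 0.133 to 0.0789 ± 0.0432 CPM, and missed the threshold without control replicate 1 or 2 or without DehydroLCA replicate 1 or 2.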
